A study of Mus musculus with 8 samples.

Results

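Constitutive regions in gene deserts are narrow stretches of open chromatin that were called in every library of the series and lie far from any protein-coding gene. They were chosen by merging the peaks of the 8 deposited lists on chromosomes 1 to 19 and keeping merged regions called in all 8 libraries, under 2000 bp wide, with a lowest fold enrichment below 20 and a midpoint more than 50 kb from every protein-coding gene span of the mouse genome build mm10. The rule kept 4864 of 88724 merged regions, which is 5.48% of all merged regions, 9.99% of the 48684 that every library shares, and 44.3% of the 10973 regions more than 50 kb from a gene. Calls, fold enrichment, width and distance therefore chose the regions, and their values are given as a description.

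The study profiled open chromatin by ATAC-seq, in which a transposase inserts sequencing adapters into accessible DNA, in long-term haematopoietic stem cells (LT-HSC) sorted from mouse bone marrow. All mice carried Vav1-cre, a Cre driver active across blood cells, and the iMOS mosaic system for Bcl11a, either as iMOS Bcl11a-MUT or as iMOS Bcl11a-WT, so the WT libraries carry Cre and the mosaic system as well. T1 and T2 populations were sorted from mice of both genotypes at an age of 2 to 3 months (3 months in the sample titles), which gave 4 groups (MUT T1, MUT T2, WT T1 and WT T2) of 2 libraries each. The labels state neither what MUT changes, nor what marks T1 and T2 cells, nor whether replicate libraries came from separate animals, so the p-values below measure only the spread between these libraries.

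Gene deserts are long stretches of DNA without protein-coding genes. Many hold distal enhancers, short elements where transcription factors bind and from which they act over long distances, through looping of the DNA, on promoters at the edge of the desert. The desert beyond Myc is a textbook case: separate elements along it are known to drive Myc in different tissues, and a cluster at its far end is known to act in blood stem and progenitor cells. Narrow open regions of this kind are also where long non-coding RNA (lncRNA) genes and microRNA (miRNA) genes of deserts can start.

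A genome sequence was not used here, and sequence was read only where a reference start-site window overlapped a region. Of the 4864 regions, 223 (4.58%) overlapped the window from 250 bases before to 50 bases after an annotated lncRNA start. The share was 1.83% of the 6069 narrow desert regions called in fewer than 8 libraries. Overlap with a window favours wider regions, and width was not matched between these sets. The difference is therefore not read as a trait of the constitutive regions. In 49 of the 223, the summits of all 8 libraries lay inside the window. From these 49 windows, 5 are printed because they belong to deserts described below (RefSeq, GRCm38.p6, printed 5′ to 3′ on the strand of the lncRNA). Capitals mark matches to GATA, RUNX, ETS, AP-1 or CTCF words.
Gm41638, chr17:83956754-83957053, minus strand, 3.75- to 5.47-fold: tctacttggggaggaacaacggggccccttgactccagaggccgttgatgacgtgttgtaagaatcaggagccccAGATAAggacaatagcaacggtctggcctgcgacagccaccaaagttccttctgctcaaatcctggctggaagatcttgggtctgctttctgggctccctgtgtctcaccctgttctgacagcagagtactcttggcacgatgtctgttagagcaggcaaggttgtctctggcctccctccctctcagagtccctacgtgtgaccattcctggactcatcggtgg
Gm35551, chr17:84026272-84026571, minus strand, 4.48- to 6.84-fold: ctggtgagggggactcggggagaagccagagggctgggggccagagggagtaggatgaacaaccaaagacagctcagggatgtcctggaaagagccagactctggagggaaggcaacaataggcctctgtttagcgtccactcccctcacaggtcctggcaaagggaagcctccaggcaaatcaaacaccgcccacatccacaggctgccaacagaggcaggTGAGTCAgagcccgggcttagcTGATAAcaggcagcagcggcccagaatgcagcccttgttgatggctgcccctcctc
Gm39895, chr2:103893810-103894109, plus strand, 4.23- to 5.76-fold: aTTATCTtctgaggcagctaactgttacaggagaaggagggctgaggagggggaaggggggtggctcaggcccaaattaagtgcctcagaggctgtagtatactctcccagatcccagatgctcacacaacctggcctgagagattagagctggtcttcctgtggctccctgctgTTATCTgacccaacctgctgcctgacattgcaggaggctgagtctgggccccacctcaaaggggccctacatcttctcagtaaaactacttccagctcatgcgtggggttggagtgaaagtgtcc
Gm34084, chr13:44480278-44480577, minus strand, 4.83- to 5.39-fold: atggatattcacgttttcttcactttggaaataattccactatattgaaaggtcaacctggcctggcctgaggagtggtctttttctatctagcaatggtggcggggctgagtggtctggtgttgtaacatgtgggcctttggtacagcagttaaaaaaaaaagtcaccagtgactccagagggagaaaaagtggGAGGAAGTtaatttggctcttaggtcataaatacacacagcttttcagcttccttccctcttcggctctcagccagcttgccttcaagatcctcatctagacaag
Mir100hg, chr9:41474643-41474942, plus strand, 11.6- to 18.2-fold: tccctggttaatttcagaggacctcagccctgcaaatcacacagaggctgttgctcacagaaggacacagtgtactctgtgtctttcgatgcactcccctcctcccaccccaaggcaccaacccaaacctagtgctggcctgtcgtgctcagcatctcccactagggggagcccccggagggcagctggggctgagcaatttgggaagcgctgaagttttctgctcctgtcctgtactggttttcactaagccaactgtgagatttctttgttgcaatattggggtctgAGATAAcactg
The windows of Gm41638 and Gm35551 lie between Haao and Zfp36l2, that of Gm39895 between Caprin1 and Lmo2, that of Gm34084 between Cd83 and Jarid2, and that of Mir100hg between Ubash3b and Gm40514.

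Both strands were searched for GATA words (AGATAA or TGATAA), RUNX words (TGTGGT or TGCGGT), ETS words (CCGGAAGT or GAGGAAGT), the AP-1 word (TGANTCA), the E-box (CANNTG), a core CTCF word and, as an unspecific word, ATAAA. Matches of different families, such as AGATAA and the AP-1 word, may share bases. Of the 49 windows with all summits inside, 7 (14.3%) held an ETS word, against 4.88% of all 11311 lncRNA windows. An AP-1 word was in 9 of 49 (18.4%) against 9.25%, and a RUNX word in 15 of 49 (30.6%) against 24.0%. GATA words were in 26.5% against 23.6%, E-boxes in 85.7% against 78.3%, the CTCF word in 1 of 49 (2.04%) against 0.760% and ATAAA in 44.9% against 49.1%. Over all 223 windows the shares were 8.97% for ETS, 14.3% for AP-1, 30.5% for RUNX and 23.3% for GATA, and the median GC content was 49.3% in the 223 windows against 48.3% in all lncRNA windows. The 11311 lncRNA windows were not limited to deserts or to open regions. All these shares are matches of letters, given without a test.

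For comparison, regions inside genes and at gene ends were taken under the same limits of calls, width and lowest fold enrichment. Under these limits, the desert regions were as wide as open regions deep inside genes and narrower than those at gene ends. Their median merged width was 854 bp (286 to 1992), against 858 bp in 12911 regions inside genes and over 10 kb from the gene ends, and 1228 bp in 11318 regions within 1 kb of a gene end. The lowest fold enrichment over the 8 libraries had a median of 6.53 (2.00 to 19.4), and the distance to the nearest protein-coding gene a median of 110332 bp, ranging from 50046 bp to 1.81e+06 bp. The rule did not use summit positions directly, but they lie inside regions whose width it capped. They spread over a median of 146 bp across the 8 libraries, against 145 bp inside genes and 182 bp at gene ends. In desert regions under 1000 bp wide the median was 121 bp, so this spread is not independent of width.

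Calls in all 8 libraries made up a smaller share of the regions in deserts than at gene ends. Of 10935 narrow desert regions, 44.5% were called in all 8 libraries and 14.3% in a single library. The same shares were 46.4% and 14.2% for narrow regions inside genes, and 84.9% and 3.86% at gene ends. Within the deserts the share called in all 8 was 46.7% at 50 to 100 kb from a gene, 45.2% at 100 to 200 kb, 41.5% at 200 to 500 kb, 33.0% at 500 to 1000 kb and 36.8% of the 87 regions at 1000 to 5000 kb. Most of the constitutive regions lay in the nearer bins, with 2187 (45.0%) at 50 to 100 kb, 1559 (32.1%) at 100 to 200 kb, 938 (19.3%) at 200 to 500 kb, 148 at 500 to 1000 kb and 32 farther out.

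Each library is a bulk profile, in which a region open in more cells and a region more open in each cell cannot be told apart. The lists hold no read totals, so depth was recovered from each peak as the lowest local background of the library. In reads per position it was 3.38 and 2.03 (MUT T1), 3.21 and 3.10 (MUT T2), 3.24 and 3.29 (WT T1), and 2.45 and 1.89 (WT T2). Both WT T2 libraries and the second MUT T1 library were thus shallower than the other 5. As a check of the labelled cell type, regions called in all 8 libraries lay within 1 kb of a gene end for 10 of 10 HSC markers, 2 of 6 B cell, 3 of 6 T cell, 1 of 6 granulocyte and monocyte, 4 of 5 erythroid and 5 of 6 stromal and endothelial markers. An open region near a gene is not expression of that gene, and the part of other cells in the results below was not tested.

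The level of the desert regions relative to other open regions moved with library depth. Each region was ranked by its fold enrichment within a library among the same 48684 regions, as a percentile from 0 to 100. The median percentile of the desert regions was 58.1 and 52.3 (MUT T1), 57.1 and 56.9 (MUT T2), 56.8 and 57.2 (WT T1) and 53.5 and 52.4 (WT T2). The 5 deeper libraries thus lay between 56.8 and 58.1 and the 3 shallower ones between 52.3 and 53.5, without overlap. Gene-end regions showed the opposite order, with 54.6 to 56.0 in the deeper and 58.9 to 60.6 in the shallower libraries, while regions inside genes moved the same way as the desert regions but less, with 47.2 to 47.8 in the deeper and 45.7 to 46.2 in the shallower libraries. Since these medians moved with depth, they are not read as a difference between the 4 groups.

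**Figure D1:**
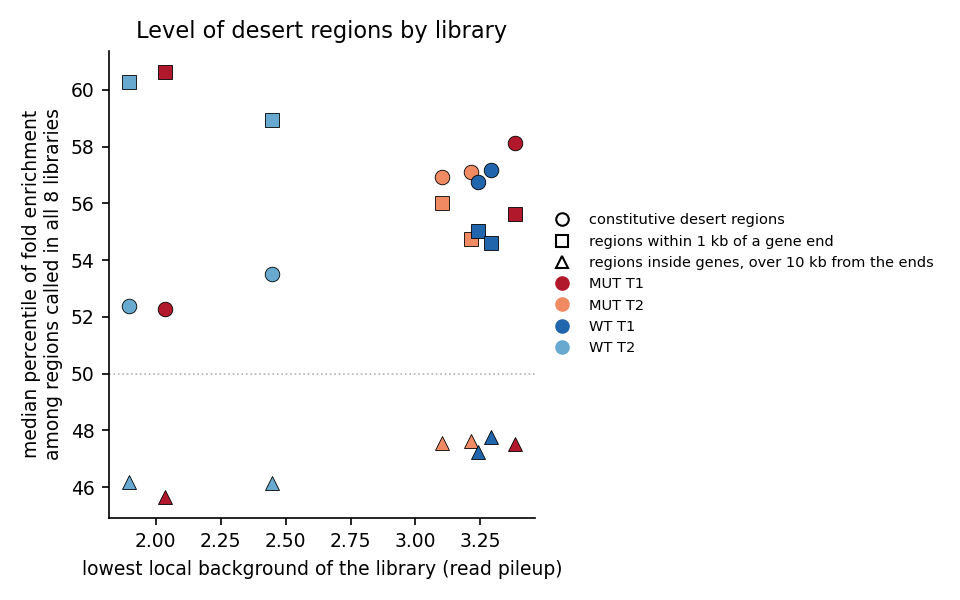
Median percentile of fold enrichment (y axis, among the 48684 regions called in all 8 libraries) against the lowest local background of each library (x axis, reads per position). Each point is 1 library, coloured by group. Circles are the desert regions, squares regions within 1 kb of a gene end and triangles regions inside genes. Circles rise from 52.3 to 58.1 and squares fall from 60.6 to 54.6 between shallow and deep libraries.

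The scale used for the rank moved the level. By fold enrichment the mean over libraries of the median percentile was 55.5 ± 2.40 (SD, n = 8), but by −log10 p-value it was 38.4 ± 1.28. The summit pileup of the desert regions had a median of 32 to 50 reads per library, against 45 to 66 in the other narrow regions called in all 8 libraries. Their local background was also lower, with a median of 1.35 to 1.47 times the genome background of the library against 2.33 to 2.38 times. In 20.6% to 29.3% of them the local background was at the genome-wide value, against 7.78% to 11.6% of the other regions.

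A few of the regions stood on a high local background. It was above 5 times the genome background, as a median over libraries, in 127 regions and above 3 times in 621. The highest lay in the lncRNA AY036118 between Esp15 and Esp38 (chr17:39848173-39848750), where the background was 362 times the genome value, the summit pileup 1685 to 2464 reads and the fold enrichment only 2.05 to 2.30. The pileup of WT T1 replicate 2 at this site could not be recovered. In Lncpint, a lncRNA between Klf14 and Mkln1, a pair of regions followed with 14.2 and 14.0 times. These 3 were singled out after their values were seen.

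The regions were unevenly spread over the deserts. Chromosomes 1 to 19 held 2476 intervals over 100 kb between protein-coding genes, with 836 Mb more than 50 kb from a gene and 5.79 constitutive regions per Mb of it. Of these intervals, 1309 held at least 1 region, 615 at least 3 and 94 at least 10, while 1167 held none. The 94 fullest intervals had 27.2% of the regions in 8.82% of the territory. Their number depended on the rule and was 54 at a distance above 100 kb, 40 at a width under 1000 bp and 151 over the 5 deeper libraries. Another 20 regions lay beyond the outermost gene of a chromosome.

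**Figure D2:**
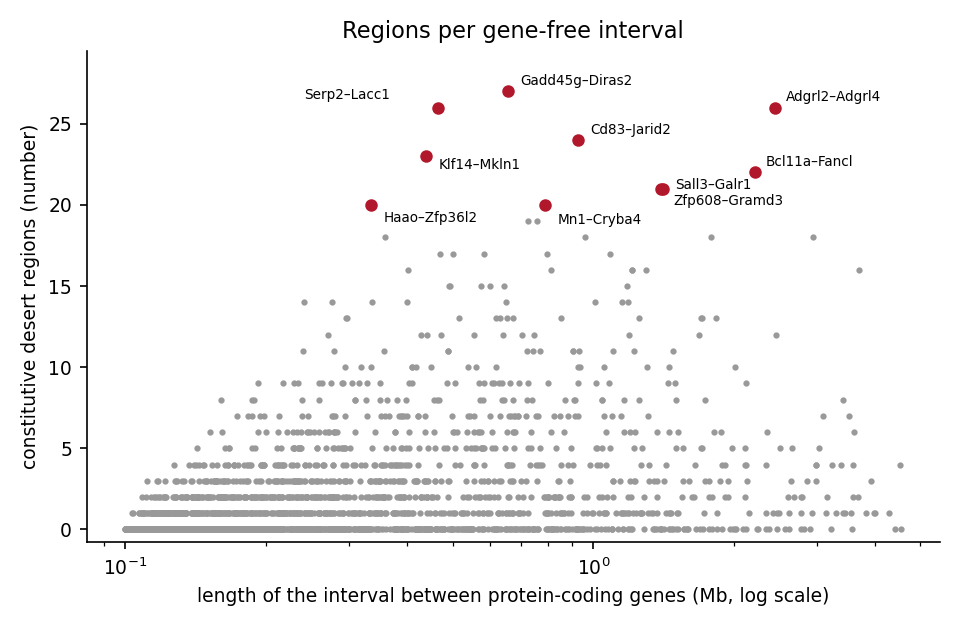
Number of constitutive desert regions (y axis) against the length of the interval between protein-coding genes (x axis, Mb, log scale). Each point is 1 of the 2476 intervals over 100 kb. The 10 fullest, in red with their flanking genes, hold 20 to 27 regions and span 0.335 to 2.45 Mb.

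The 10 fullest deserts bordered genes of many kinds. Between Gadd45g, a growth arrest and DNA damage response gene, and Diras2, a small GTPase gene, 27 regions lay in 656 kb (chr13:51848476-52504374). Between the adhesion receptor genes Adgrl2 and Adgrl4, 26 lay in 2.45 Mb, and between Serp2, an endoplasmic reticulum stress gene, and Lacc1, an enzyme gene of macrophages, 26 lay in 465 kb. Between Cd83, a surface gene of activated lymphocytes and dendritic cells, and Jarid2, a Polycomb cofactor gene, 24 regions were found, 19 of them nearer to Jarid2. Klf14 to Mkln1 held 23, Bcl11a to Fancl 22, Sall3 to Galr1 21, Zfp608 to Gramd3 21, and Mn1, a coregulator gene rearranged in myeloid leukaemia, to Cryba4 20.

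The densest of the 10 was the desert between Haao and Zfp36l2, an mRNA decay gene needed by blood stem cells, with 20 regions in 335 kb, or 85.1 per Mb of its territory. By fold enrichment, a ratio to the local background, its regions were not strong. The median, taken over regions and libraries, was 5.61, and the highest region (chr17:84042878-84043826, in the lncRNA gene Gm35551) reached 7.01- to 10.3-fold. The local background ran from 1.77 to 9.73 times the genome value over the regions of this desert. At the upper end (chr17:83990092-83991252) the summit pileup was 123 to 192 reads, against library medians of 32 to 50 over all desert regions. The windows of Gm41638 and Gm35551 printed above lie in this desert, 227 and 158 kb from Zfp36l2.

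Long deserts held few regions for their length. The 73 intervals of 2 Mb or more had 1.23 regions per Mb of territory, against 5.79 over all intervals, and 57 of them held under 5. They were not more often empty: 18 (24.7%) held none, against 47.1% of all intervals, which are mostly shorter (median 228 kb over all and 159 kb for the empty ones). The longest interval, 4.54 Mb between the protocadherin genes Pcdh20 and Pcdh9, held no constitutive region, and neither did 4.42 Mb between Olfm4 and Pcdh17. In 3.21 Mb between Cdh8 and Cdh11, no library had a peak at all. Zeb2, a transcription factor gene of stem cells, and Acvr2a flank an interval of 3.70 Mb with 16 regions.

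The regions came in runs. Neighbours within an interval were separated by a median of 23.3 kb, with 26.0% within 10 kb and 85.7% within 100 kb. Joining regions up to 100 kb apart gave 977 clusters of at least 2, with 82.6% of all regions, and 846 regions alone. Clusters of 10 or more numbered 59 and held 800 regions (16.4%). The largest ran between Gadd45g and Diras2 with 27 regions over 491 kb, followed by Serp2 to Lacc1 with 26 over 320 kb, Klf14 to Mkln1 with 23 over 314 kb and Haao to Zfp36l2 with 20 over 225 kb. Others ran between Runx1 and Setd4 (19 over 571 kb), Cd83 and Jarid2 (19 over 396 kb), Zfp608 and Gramd3 (19 over 791 kb), Ly86 and Rreb1 (18 over 244 kb), Map3k1 and Ankrd55 (17 over 304 kb), and Prok2 and Rybp (17 over 371 kb).

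Myc, which encodes a growth-promoting transcription factor, had 22 constitutive regions in the deserts on its sides. The upstream interval from A1bg (1.06 Mb) held 4 of them among 16 desert regions called in any library, and the interval from Myc to Gsdmc (1.79 Mb, chr15:61990362-63775970) held 18 among 46. Beyond Myc they fell into 4 sets: 6 at 89.1 to 220 kb, all inside the span of the lncRNA gene Pvt1, 1 at 339 kb, 1 at 1.13 Mb in the lncRNA gene Gm30159, and 10 at 1.61 to 1.73 Mb. A stretch of 478 kb without such a region preceded the last set, which covers 121 kb (chr15:63601467-63722538).

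The far set was of moderate fold enrichment, and its calls in every group follow from the rule. Its 10 regions had median fold enrichments of 4.55 to 9.69. The strongest (chr15:63610882-63611804) had a fold enrichment of 10.1 and 8.49 (MUT T1), 10.2 and 10.8 (MUT T2), 8.03 and 9.15 (WT T1) and 9.25 and 12.5 (WT T2). The genotypes overlapped, since the highest and the lowest of the 8 folds were both in WT, and so did their percentiles (58.5 to 89.3 in MUT, 60.4 to 89.3 in WT). The weakest (chr15:63692702-63693912) ranged from 3.57 in WT T1 replicate 1 to 6.10 in WT T2 replicate 1. Another of the 10, at 1658 kb (chr15:63647590-63649061), stood on a local background of 6.63 times the genome value and had a summit pileup of 101 to 166 reads.

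Nearer to Myc the values were similar. The nearest region in Pvt1 (chr15:62078903-62079938, 89.1 kb from Myc) had a fold enrichment of 9.87 and 9.36 (MUT T1), 9.36 and 8.03 (MUT T2), 10.4 and 11.9 (WT T1) and 12.1 and 12.4 (WT T2). Each WT library was above each MUT library here, also in percentile (85.6 to 92.8 against 60.2 to 84.9), but no region on either side of Myc passed the test between genotypes described below. The other 5 Pvt1 regions had median folds of 5.77 to 9.47. The highest median fold around Myc was upstream, 11.8 at 828 kb from the gene in the lncRNA gene Gm38563 (chr15:61157445-61158176). A region 277 kb upstream in D030024E09Rik varied most in percentile, from 22.8 in MUT T1 replicate 2 to 94.7 in WT T1 replicate 1. Its fold enrichment in these libraries was 5.93 and 12.3.

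Bcl11a, the gene that the study manipulates, encodes a zinc finger repressor known for silencing fetal globin genes and for its part in stem cells and lymphocytes. Its well-known erythroid enhancers lie in an intron, which the distance rule leaves out. Bcl11a bordered 24 constitutive desert regions, 22 of them on the side of Fancl (2.21 Mb, chr11:24173559-26387083). Of these, 11 lay at 53.4 to 291 kb from Bcl11a and 11 at 931 to 2037 kb.

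The strongest regions of this desert were in its far part. The region chr11:25300886-25301649, at 1128 kb from Bcl11a in the lncRNA gene Gm12069, had a fold enrichment of 13.6 and 10.9 (MUT T1), 14.9 and 11.9 (MUT T2), 15.1 and 12.7 (WT T1) and 14.8 and 16.9 (WT T2). The region at 1689 kb in 5730522E02Rik (chr11:25862554-25863215) had 9.56 and 13.2, 11.8 and 12.1, 13.4 and 14.4, and 13.6 and 13.3 in the same order. MUT and WT libraries overlapped at the first. At the second each WT library was above each MUT library in fold enrichment, but their percentiles, defined above, overlapped (81.8 to 95.8 in MUT and 92.7 to 98.7 in WT). In the near part the median folds ran from 3.95, at 122 kb, to 9.82, at 217 kb, and the nearest region (chr11:24226364-24227502, 53.4 kb from Bcl11a) ranged from 7.77 to 10.5.

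Runx1, a master transcription factor gene of blood formation, bordered 19 regions over 571 kb toward Setd4. Their distances from Runx1 ran from 58.0 to 628 kb and their median folds from 4.45 to 12.1. The strongest, at 467 kb (chr16:93292815-93293638), had summits within 2 bp of each other in all 8 libraries. Its fold enrichment was 10.9 and 12.5 (MUT T1), 13.2 and 11.7 (MUT T2), 9.85 and 10.2 (WT T1) and 17.1 and 14.6 (WT T2), so both WT T2 libraries were highest and both WT T1 libraries lowest. The order was the same in percentile, with 99.5 and 96.5 in WT T2, 80.7 and 82.5 in WT T1 and 91.7 to 95.8 in MUT, and the region passed no test between groups described below.

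**Figure D3:**
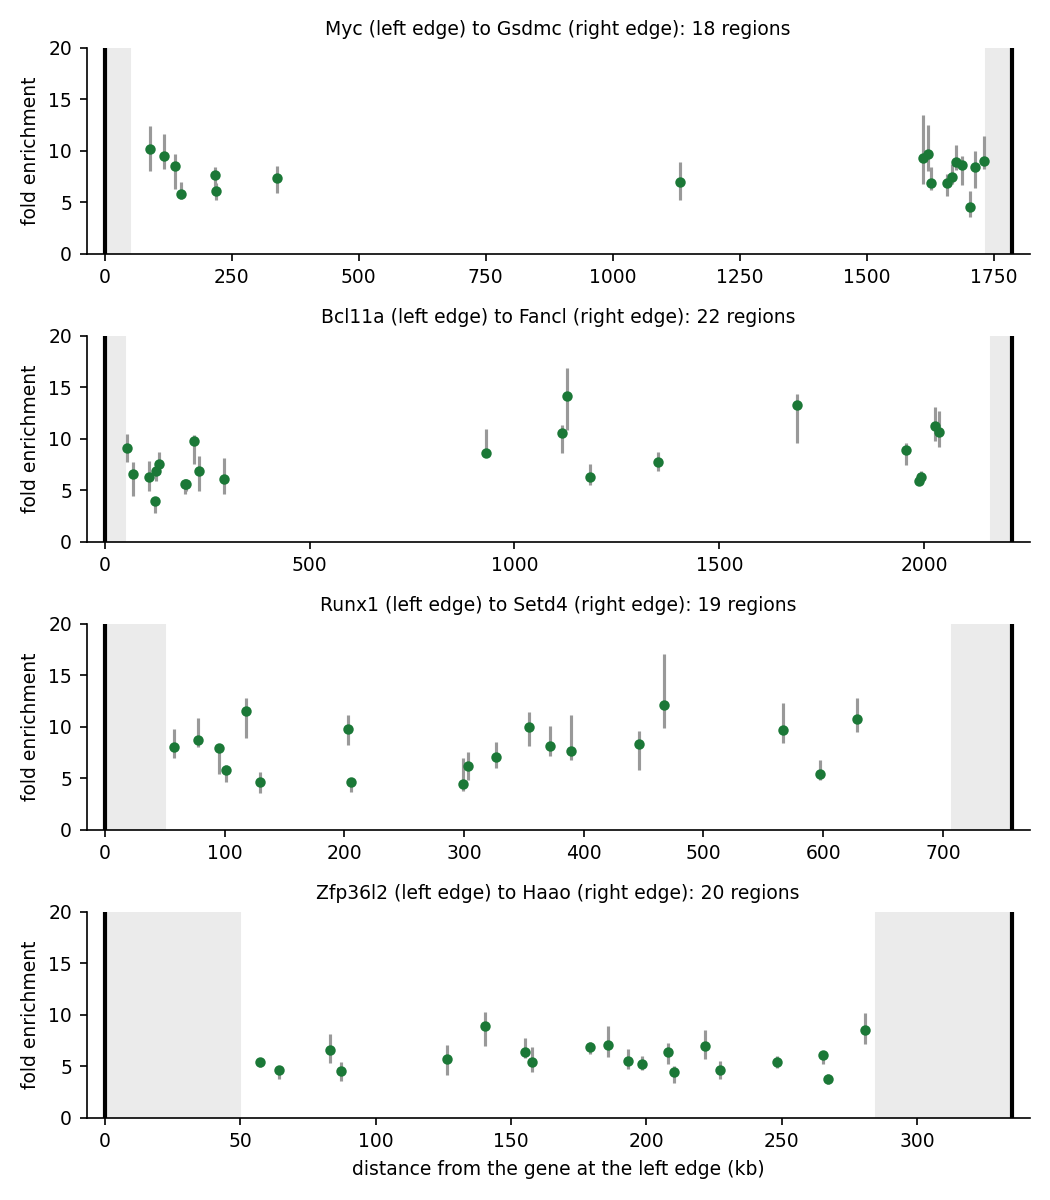
Fold enrichment of each constitutive desert region (y axis) against its distance in kb from the gene at the left edge (x axis) in 4 intervals. Points are medians and grey lines the range over the 8 libraries, black lines the flanking genes, and grey bands the 50 kb next to each gene that the rule leaves out. The 18 regions beyond Myc gather at both ends of the interval, the 22 beyond Bcl11a in a near and a far part, while the 19 beyond Runx1 and the 20 between Zfp36l2 and Haao run along the interval.

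The genes at the edges of the deserts were counted in 6 lists and over all protein-coding genes. Of 4070 genes next to an interval over 100 kb, 30.0% had 3 or more regions beside them. The share was 79.2% (19 of 24) for HSC and progenitor transcription factor genes, 75% (9 of 12) for blood cytokine, receptor and niche genes, 80.0% (12 of 15) for AP-1 and immediate early genes, and 77.8% (7 of 9) for cell cycle, survival and growth control genes. It was 53.8% (21 of 39) for developmental transcription factor genes and 38.5% (15 of 39) for adhesion and synaptic genes. The median number of regions beside a bordering gene was 7, 7.5, 9, 9, 3 and 1 in these lists, and 1 over all genes. The lists were written with earlier results of these data known, and no set test was made.

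Interval length differed between the lists, so the number per Mb of territory was also compared. It was 10.2 for the HSC and progenitor transcription factor genes, 17.6 for the cytokine and receptor genes, 17.0 for the AP-1 and immediate early genes and 30.7 for the cell cycle genes, against 5.79 overall. The developmental transcription factor genes, at 5.34, were close to the overall density. The adhesion and synaptic genes, whose intervals had a median length of 1221 kb, held 77 regions in 99.5 Mb, or 0.774 per Mb.

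**Figure D4:**
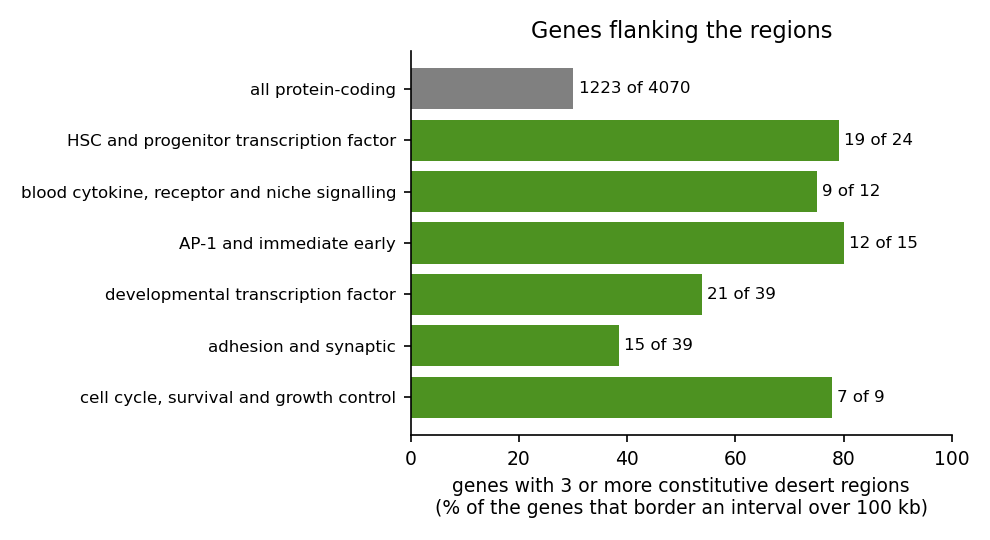
Share of genes with 3 or more constitutive desert regions beside them (x axis, % of the genes of a list that border an interval over 100 kb). Each bar is 1 list, with the counts beside it, and the grey bar is all protein-coding genes. The bars of 4 lists lie at 75% or above, adhesion and synaptic genes at 38.5% and all genes at 30.0%.

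Among the HSC and progenitor transcription factor genes, Bcl11a had 24 regions, Myc 22, the homeobox gene Meis1 20, Runx1 19, Zeb2 16, Cebpb 14, Mycn 14 and Gata3 12. Satb1 and Tcf4 had 9, Lmo2 8, Mllt3 and Runx3 7, Ikzf2 5, Foxp1 4, and Bach2, Runx2 and Ebf1 3. The length of the interval and the distance rule bound how far from a gene its regions can lie. The 14 regions of Cebpb, a myeloid factor, lay within 188 kb, and the 8 of Lmo2, an adaptor of the stem cell transcription complex, at 51.2 to 109 kb, among them the Gm39895 start printed above. In longer intervals, those of Meis1 lay at 92.8 to 869 kb and those of Zeb2 at up to 3500 kb.

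Of the signalling genes, Kit, the stem cell factor receptor, had 20 regions at 74.2 to 295 kb with median folds of 2.83 to 13.0. The laminin receptor subunit gene Itga6 had 11, the chemokine receptor gene Cxcr4 and its ligand gene Cxcl12 9 each, Itga4 and Tgfbr2 8, Angpt1 7, Kitl 5 and Jag1 3. The single region near Cd34, a stem and progenitor surface gene, was strong, with a median fold of 15.1 at 59.1 kb.

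Of the AP-1 and immediate early genes, Zfp36l2 had 20 regions, Klf4 and Maf 18, Klf6 14, the MAP kinase phosphatase gene Dusp6 11, Nr4a3 10, and Jun and Zfp36l1 9. Fos, Egr2 and Ier5 had 3. In the growth control list the pro-apoptotic gene Bcl2l11 had 12, Irs2 and the D cyclin gene Ccnd2 10, Bcl6 9, the cyclin-dependent kinase gene Cdk6 5, and Ccnd1 and Foxo3 4. Cdk6 is the outermost gene of its chromosome and borders no interval, so it is not among the 9.

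Of the developmental transcription factor genes, Sox4, which also acts in blood progenitors, had 17 regions, Foxo1 and Sox9 15, Tshz1 14, Sox6 13, Sox5 12, and Foxa2 and Foxf1 9. Irx3 and Irx5 shared the same 7 regions between them, Tfap2c had 6, Zic1 and Tbx3 5, Zfhx3 4, and Zfpm2, Tbx20, Nr2f2, Sox2, Tbx5 and Sox17 3. Of the adhesion and synaptic genes, Slitrk5 had 8 and Unc5d 7. Cdh18, Csmd3, Dcc, Pcdh17, Pcdh7, Cntnap4 and Cdh2 had 4, and Cdh20, Cdh11, Opcml, Lrrtm4 and Lrrc4c 3. The 8 regions of Slitrk5 lay at 3108 to 3351 kb, and with only the nearer flanking gene counted, 2 adhesion and synaptic genes kept 3 or more.

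Part of the regions lay in lncRNA genes. Of the 4864, 1209 (24.9%) had their midpoint in an annotated lncRNA span, against 21.8% of the other narrow desert regions and 11.7% of desert territory. Those at a lncRNA start window were wider than the rest, with a median of 980 bp against 849 bp, at a similar median fold of 8.24 against 8.04. They were picked by overlap with the window, which favours wider regions, so the width difference is not read as a trait of lncRNA starts. The Mir100hg start is the host start of Mir100 and Mirlet7a-2, and its region (chr9:41474382-41475183) was among the stronger ones. Its fold enrichment was 11.6 and 13.4 (MUT T1), 13.6 and 12 (MUT T2), 15.1 and 13.0 (WT T1) and 16.2 and 18.2 (WT T2). Both WT T2 libraries lay above the other 6 in fold enrichment, but the folds of all desert regions were also highest in these libraries (medians of 8.41 and 8.58, against 7.65 to 8.28). In percentile the region stood at 95.1 to 99.8 in the 8 libraries, and WT T1 replicate 1 (99.4) was above WT T2 replicate 1 (98.9).

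Of 136 miRNA genes in desert territory, 48 (35.3%) lay within 20 kb of a constitutive region, while 15.5% of desert territory lay that close. Many of these genes lie in tight clusters and share a region, so they are not independent of each other. The run from Mir382 to Mir3072, for example, lies 15.6 to 1.53 kb from the same region (chr12:109749490-109750590). No test was made. The mature sequences of 4 of them are printed for the miRNA deserts described here, with the seed (bases 2 to 8) in capitals (RefSeq, GRCm38.p6).
mmu-miR-29a-3p: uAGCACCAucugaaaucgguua
mmu-miR-29b-3p: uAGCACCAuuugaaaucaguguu
mmu-miR-100-5p: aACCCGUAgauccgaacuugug
mmu-miR-9-5p: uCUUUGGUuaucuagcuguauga
The miR-29 pair shares its seed. Mir29a and Mir29b-1 lie in the Klf14 to Mkln1 desert, 16.6 and 16.2 kb from a region of 4.84- to 5.68-fold (chr6:31079336-31080387). Mir100 lies 4.93 kb from a region of 6.53- to 8.11-fold (chr9:41525364-41526499). Mir9-2 and the miRNA gene Gm51268 on the opposite strand both lay inside a region between Mef2c and Tmem161b (chr13:83737543-83738971, 3.94- to 5.09-fold) and were the only ones of the 136 to overlap a region. Mir6372 lies 0.718 kb from a region of the Bcl11a desert (chr11:26200879-26201522, 9.83- to 13.0-fold).

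The 10 strongest and the 10 farthest regions did not overlap, as such short lists seldom would. Over all desert regions the median fold enrichment was not lower far from genes. It was 8.05 at 50 to 100 kb, 7.91 at 100 to 200 kb and 8.16 at 200 to 500 kb. At 500 to 1000 kb it was 8.68, and 9.02 in the 32 regions farther out. The 10 regions with the highest lowest fold, 14.2 to 19.4, lay at 53.0 to 315 kb from a gene, led by those between Gm15319 and Gm40469 (chr8:20424218-20425076, 19.4- to 24.7-fold), between Zswim2 and Calcrl (chr2:83993776-83994761, 17.1- to 19.5-fold) and between Gng4 and B3galnt2 (chr13:13889334-13889998, 16.7- to 20.03-fold). None of the 10 lay in an annotated lncRNA gene. Their summits fell within 2 to 194 bp over the 8 libraries. The 10 farthest lay at 1322 to 1812 kb, the farthest between Pcdh7 and G6pd2 (chr5:59996530-59997118), with fold enrichments of 5.19 to 10.4. Of these 10, 3 lay between Slc10a2 and Efnb2 and 2 between Zeb2 and Acvr2a.

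At the limits of the rule, regions of 1992 and 1991 bp were just inside and regions of 2007 and 2013 bp just outside, the last of these near Bcl2l11. The highest lowest folds inside were 19.4 and 17.1, and outside 24.2, between Pex2 and 1700008P02Rik, and 32.0, between Mc2r and Tcf4. Midpoints at 50046 and 50054 bp from a gene were inside and at 49995 and 49993 bp outside.

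Levels within the libraries were compared between MUT and WT, between T1 and T2, and for the genotype difference between T1 and T2, with limma on normal scores of the within-library ranks over all 48684 shared regions and Benjamini-Hochberg adjustment over all of them. Between MUT and WT, 5 regions (0.0103%) passed an adjusted p of 0.05, all higher in MUT, and 1 of them was a desert region. At an unadjusted p below 0.05 there were 440 desert regions (9.05%) against 6.49% of all shared regions, 267 of them higher in MUT (5.49%, against 3.5%) and 173 lower (3.56%, against 2.99%). Percentiles of the 4 MUT and 4 WT libraries did not overlap in 104 desert regions with MUT higher (2.14%, against 1.74% of all) and in 68 with MUT lower (1.40%, against 1.55%). The median estimate was 0.0186 in desert regions and -0.00535 in all shared regions. Depth was not balanced between the genotypes, since both WT T2 libraries but only the second MUT T1 library were shallower. The part of depth in these counts was not tested.

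The desert region that passed lies between Arl4c, a small GTPase gene, and Sh3bp4, an endocytic adaptor gene (chr1:88902271-88903224, 201 and 168 kb from them). Its fold enrichment was 10.5 and 11 (MUT T1), 9.58 and 8.17 (MUT T2), 6.84 and 5.59 (WT T1) and 5.22 and 5.87 (WT T2). Every MUT library lay above every WT library in this region. Its percentile was 89.1, 84.9, 73.1 and 62.3 in the MUT libraries and 42.7, 22.2, 13.2 and 18.0 in the WT libraries. The difference in normal score was 1.54 (SE 0.20), with an adjusted p of 0.0417 by limma. The call ended when any of the 8 libraries was left out, with adjusted p-values of 0.140 to 0.284 by limma, and without the 3 shallower libraries (0.624), although the difference stayed between 1.40 and 1.71.

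No region passed between T1 and T2 or for the genotype difference between T1 and T2 (0% of the 48684 in limma, lowest adjusted p over the desert regions 0.886 and 0.690). At an unadjusted p below 0.05 there were 375 desert regions for T1 against T2 (7.71%, against 5.32% of all), 209 of them higher in T1 (4.3%, against 2.73%) and 166 lower (3.41%, against 2.58%). Percentiles did not overlap in 80 with T1 higher (1.64%, against 1.37%) and 52 with T1 lower (1.07%, against 1.28%). The median estimate was 0.0222 in desert regions and -0.00272 in all. Depth was not balanced here either, with both WT T2 libraries and only the second MUT T1 library shallower. Its part in these counts was not tested. The 5 smallest p-values, none passing, were for regions between Pard3 and Nrp1, Tlr4 and Brinp1, Usp25 and Cxadr, Ythdf3 and Cypt12, and 1700003H04Rik and Ndst4. The region between Usp25 and Cxadr (chr16:77236671-77237464) had percentiles of 89.4 and 83.9 in MUT T1 and 82.3 and 73.9 in WT T1, against 54.3 and 64.1 in MUT T2 and 49.95 and 31.0 in WT T2.

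For the genotype difference between T1 and T2, 433 desert regions (8.90%, against 7.11% of all) had an unadjusted p below 0.05, of which 105 were positive (2.16%, against 3.19%) and 328 negative (6.74%, against 3.92%). A negative value means that MUT against WT was lower in T1 than in T2. The median estimate was -0.11 in desert regions and 0.03 in all. The 5 smallest p-values, none passing, lay between Ccn6 and Fyn, Nebl and H2al2a, Fstl5 and Rapgef2, Slc7a11 and Noct, and Cep85l and Mcm9, and in each the WT T2 libraries were lowest or among the lowest. Between Ccn6 and Fyn (chr10:39239700-39240447) they stood at 60.7 and 57.7, against 83.5 to 97.6 in the other 6. Both WT T2 libraries and the second MUT T1 library, which weigh on the same side of this contrast, were also the 3 shallower ones, and with them left out no WT T2 library remains, so depth and this contrast cannot be told apart.

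**Figure D5:**
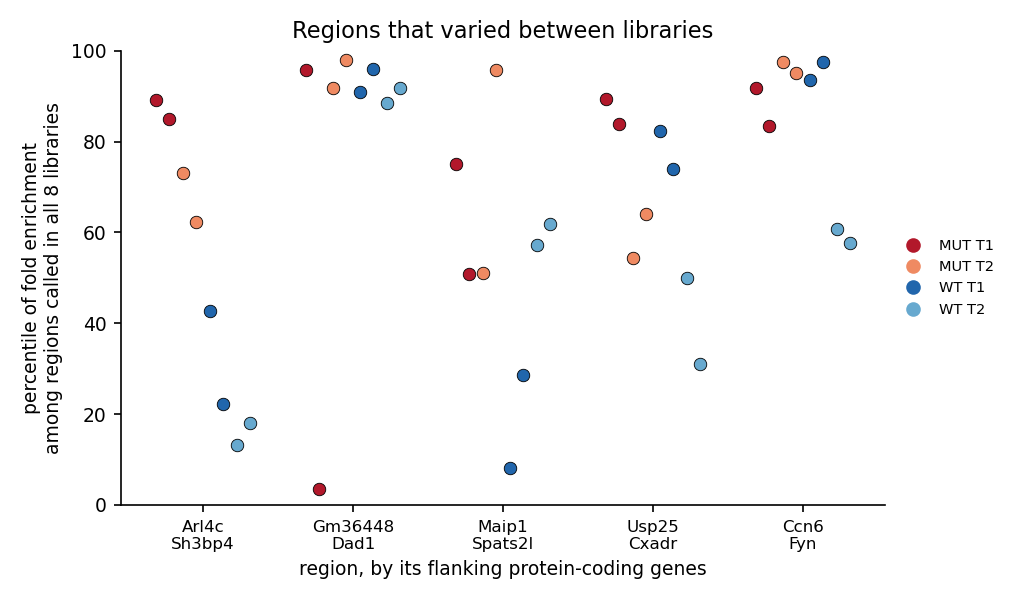
Percentile of fold enrichment among the 48684 shared regions (y axis) in each library (points, coloured by group) for 5 desert regions named by their flanking genes (x axis). In the region between Arl4c and Sh3bp4 the MUT libraries (62.3 to 89.1) lie above the WT libraries (13.2 to 42.7), and between Gm36448 and Dad1 a single MUT T1 library lies at 3.49 while the other 7 are at 88.5 to 98.1.

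Individual regions moved between libraries. The range of the percentile over the 8 libraries had a median of 31.0 points, and the 2 libraries of a group differed by a median of 11.2 points in MUT T1, 8.69 in MUT T2, 8.55 in WT T1 and 9.14 in WT T2. The range was widest between Gm36448 and Dad1 (chr14:52654150-52655200), where the fold enrichment was 11.9 and 3.95 (MUT T1), 12.1 and 13.2 (MUT T2), 11.3 and 12.8 (WT T1) and 12.2 and 13.1 (WT T2). The next 4, between Maip1 and Spats2l, Pard3 and Nrp1, Stpg2 and Pdha2, and Lratd1 and Trib2, spanned 87.6, 82.0, 81.3 and 80.8 points. Between Pard3 and Nrp1 all 4 T2 libraries (85.0 to 93.0) lay above all 4 T1 libraries (10.96 to 63.1). All 5 stood on the genome-wide background, with lowest summit pileups of 11 to 17 reads. Over the 28 pairs of libraries, the normal scores correlated at 0.766 to 0.853 across the desert regions and at 0.844 to 0.907 across all shared regions, values that are across regions and not independent replicates.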

How the data were processed

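Open chromatin was profiled by ATAC-seq from 5000 nuclei per library of sorted LT-HSC (30 min transposition at 37 °C, per the labels' protocols), in 8 libraries of 4 groups. Per the submitters' processing notes, Bowtie2, SAMtools and MACS2 were used with build mm10; versions are not given in the sources used here. The authors deposited 1 peak list per library (narrowPeak), so peaks were called per sample, 546792 on chromosomes 1 to 19. The deposited columns used were the fold enrichment at the summit (a ratio to the local background), the −log10 p-value and −log10 q-value (lowest 3.00 to 3.04 per list) and the summit offset; the deposited score column was read but not used. These values are the authors' own for each peak.

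From there, peaks overlapping by 1 bp were merged (Python 3.11.15, pandas 2.3.3). Gene spans came from the RefSeq table of GRCm38.p6: 20661 protein-coding genes, of which 105 with a start in the first 3 Mb of a chromosome, which is unsequenced in this build, were left out. Summit pileup and local background were solved from the fold and the −log10 p-value with a Poisson model; pileups came out whole within 0.001 for at least 99.9986% of peaks, and peaks with a −log10 p-value above 300 were not solved. The counts of reads per library are unknown, so the lowest local background stands for depth. A region's level was its highest fold in a library, ranked over 48684 regions; limma 3.58.1 (R 4.3.3; trend, robust) was fitted to normal scores with the means of the 4 groups and no replicate block, and was tested on simulated data. Replicate numbers were used only as names of the libraries.

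The members, lists and tests were chosen with earlier results of these data known. Named were all members beside Myc, the 10 fullest intervals and clusters, the 10 strongest and farthest members, those past each rank test (at most 10, or else the 5 of smallest p), 2 on each side of each threshold, the 5 most variable, and list genes beside 3 or more members (some are counted but not reported here by name); other named regions were chosen after their values were seen. Alternatives covered the thresholds, the merge, the peak lists, the rank scale, the fit and each library left out; the ones for the level of the members were chosen after seeing the data. Motif words in the members themselves were not searched, because no genome was used here.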

Additional observations from a re-analysis of the deposited data

Results flagged for a closer look

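In groups of 4 libraries (MUT, WT, T1 and T2), the library farthest from the others was compared with the range of its group. This was done for library summaries and for the percentiles of regions named for the rank tests or for the widest ranges. Of 92 such groups, 6 had a library that stood apart by the 95% limit of Dixon's test for 4 values. Chance gives about 1 in 20 for values not chosen beforehand. That rate does not hold for regions picked by spread or by small p-values, and the groups share libraries.

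The median summit pileup of the desert regions was 32 reads in MUT T1 replicate 2, against 46 to 48 in the other T1 libraries; this library is also of low background. The same library put the region between Gm36448 and Dad1 at percentile 3.49, against 91.9 to 98.1 in the other MUT libraries and 90.9 to 96.0 in the other T1 libraries. MUT T1 replicate 1 put the region between Stpg2 and Pdha2 at percentile 89.4, against 27.2 to 37.7 in the other MUT libraries. WT T1 replicate 1 put the region between Cep85l and Mcm9 at percentile 80.5, against 39.1 to 42.5 in the other T1 libraries. MUT T2 replicate 1 put the region between Ythdf3 and Cypt12 at percentile 23.7, against 10.5 to 10.9 in the other T2 libraries.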

How the results depend on the processing

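The number of constitutive desert regions (4864) moved to 7684 with a distance above 25 kb and to 2677 above 100 kb; under the other alternatives run it stayed within 1.5 times. Clusters of 10 or more (59) numbered 101 and 28 at these distances, 21 with a width under 1000 bp, 100 over the 5 deepest libraries and 30 with gaps up to 50 kb. Intervals with a region (1309) numbered 2238 above 25 kb and 733 above 100 kb, and those with 10 or more (94) numbered 54 above 100 kb, 40 with a width under 1000 bp and 151 over the 5 deepest libraries. Genes with 3 or more regions, 1226 of all protein-coding genes, numbered 1936, 673 and, counting only the nearer gene, 649. The same count was 12 for the HSC and progenitor transcription factors above 100 kb, 9 for the developmental transcription factors with the nearer gene only, and 7 and 2 for the adhesion and synaptic genes above 100 kb and with the nearer gene only. The level of the regions was 38.4 when ranked by −log10 p-value, against 55.5, and 55.1 to 56.0 with a library left out.

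Between MUT and WT, the 5 shared regions and the 1 desert region called became 27 and 5 when ranked by −log10 p-value (4 of the 5 higher in MUT), and 0 and 0 with untransformed percentiles, without a variance trend, without the 3 shallower libraries and with the replicate number as a block; with equal numbers of peaks they became 1 and 0. With a library left out, both counts ranged from 0 to 0. The region between Arl4c and Sh3bp4 was called in 3 of 16 alternatives, with adjusted p-values by limma of 0.0124 to 0.624 over all of them and 0.0633 with the replicate block. The labels do not state whether the numbers pair the libraries. Deviations of same-numbered libraries correlated at 0.01 to 0.07, which cannot settle it with 2 libraries per group. No alternative turned a direction among the named regions. The cause of these changes was not tested. The depth limits single regions, since the lowest summit pileups were 11 to 15 reads per library.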
